A study of Mus musculus with 4 samples.

Results

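Collagen chains were examined in NIH/3T3 cells, an established mouse fibroblast line, by comparing RNA from pseudopodia with RNA from the cell bodies left behind. All probe sets of the array whose only gene symbol names a collagen alpha chain were taken, which gave 82 probe sets for 42 genes out of 45037 probe sets that are not controls. The comparison used the 45 collagen probe sets, for 30 genes, whose mean intensity over the 4 arrays was at least 42, among 22884 probe sets past the same minimum. Cells of both groups were kept without serum above pores whose lower face alone carried fibronectin, sent protrusions through for 1 h and were fixed with 0.3% formaldehyde for 10 min. The fixation was reversed at 70 C for 45 min in both groups. The 2 pseudopodia samples hold the protrusions scraped from the underside, and the 2 cell body samples hold what was scraped from the upper face. The labels name no genotype or drug in either group. In such bulk fractions, fewer protrusions that hold a message and less of it in each cannot be told apart. The labels do not say that replicates are separate cultures, so the p-values rest on a spread that may be technical.

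Collagens are the main structural proteins of the extracellular matrix. Each is a trimer of alpha chains that are made on the rough endoplasmic reticulum, wound into a triple helix there and secreted. Fibroblasts are the classic source of the fibrillar types, and they also make the beaded filaments of type VI and parts of the basement membrane network of type IV. FACIT collagens bind to the surface of fibrils, and membrane-bound collagens span the plasma membrane.

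Messages of the bright collagens of types I, IV, V and VI were lower in pseudopodia than in cell bodies. Of the 45 collagen probe sets, 20 fell, 0 rose and 25 did not pass the test (limma, Benjamini-Hochberg adjusted p under 0.05 over all probe sets tested). The background shares were 7.26% lower and 4.11% higher. These 20 probe sets belong to 15 of the 30 genes. One of them, Col25a1, passed the minimum only through the cell body arrays, and among the 44 collagen probe sets above the floor on every array the fit again called 20 lower. The median log2 difference of the 45, pseudopodia minus cell body on the log2(intensity + 1) scale, was -0.78, against -0.0033 over all probe sets tested. On 29 collagen probe sets both pseudopodia arrays lay below both cell body arrays, where the background share was 30.8%, and on 3 both lay above, where it was 28.7%. The count of collagens that rose was 1, Col6a4, in 4 of the alternative settings, and that probe set passed the minimum only through the pseudopodia arrays.

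The calls need all 4 arrays in the fit. With any 1 array left out limma called 0 of all 22884 probe sets, collagens included. At an unadjusted p under 0.05, 23 to 27 of the 45 collagen probe sets were then lower and 1 or 2 higher, and 4622 to 5849 of all probe sets passed in either direction. Without the intensity minimum limma called 0 of the 82 collagen probe sets and 73 of all 45037. At an unadjusted p under 0.05, 25 collagens were then lower and 3 higher, among 7512 probe sets that passed. Markers of other cell types had lower summed intensities than fibroblast markers on all arrays. Of 10 epithelial markers 5 passed the minimum, with a summed intensity of 1020 to 1126 in pseudopodia and 1213 to 1303 in cell bodies. Their brightest, Epcam, read 248 and 348 in pseudopodia and 604 and 471 in cell bodies, and none of them was called. Epcam and Cldn3 had means of 418 and 294, above the fibroblast markers Pdgfra at 232 and Prrx1 at 188. The 6 endothelial markers summed to 138 to 220.4. Of 9 haematopoietic markers 5 passed the minimum, the brightest being Lyz2, Csf1r and Laptm5, with means of 146, 121 and 86.6. Ptprc, Cd3e and Itgam lay at or near the floor, and Cd68 had a mean of 41.8. The sums were 497 to 587 in pseudopodia and 508 to 615 in cell bodies. The 11 fibroblast markers summed to 46636 and 47741 in pseudopodia and to 53119 and 56940 in cell bodies, although Thy1 and Fap were at the floor on all arrays. Of these markers 1 was called lower in pseudopodia and 0 higher. Pdgfrb read 1310 and 1762 in pseudopodia and 3788 and 3247 in cell bodies, and Pdgfra read 131 and 149 against 390 and 259. For the Actb control, signal near the 3' end over that near the 5' end, as log2, was 0.56 and 0.65 in pseudopodia and 0.37 and 0.36 in cell bodies. The same measure differed by 0.03 between compartments for Gapdh and by -1.01 for 18S, and its part in the collagen differences was not tested. The pseudopodia arrays were scanned before the cell body arrays, so scan order and compartment cannot be told apart.

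**Figure D1:**
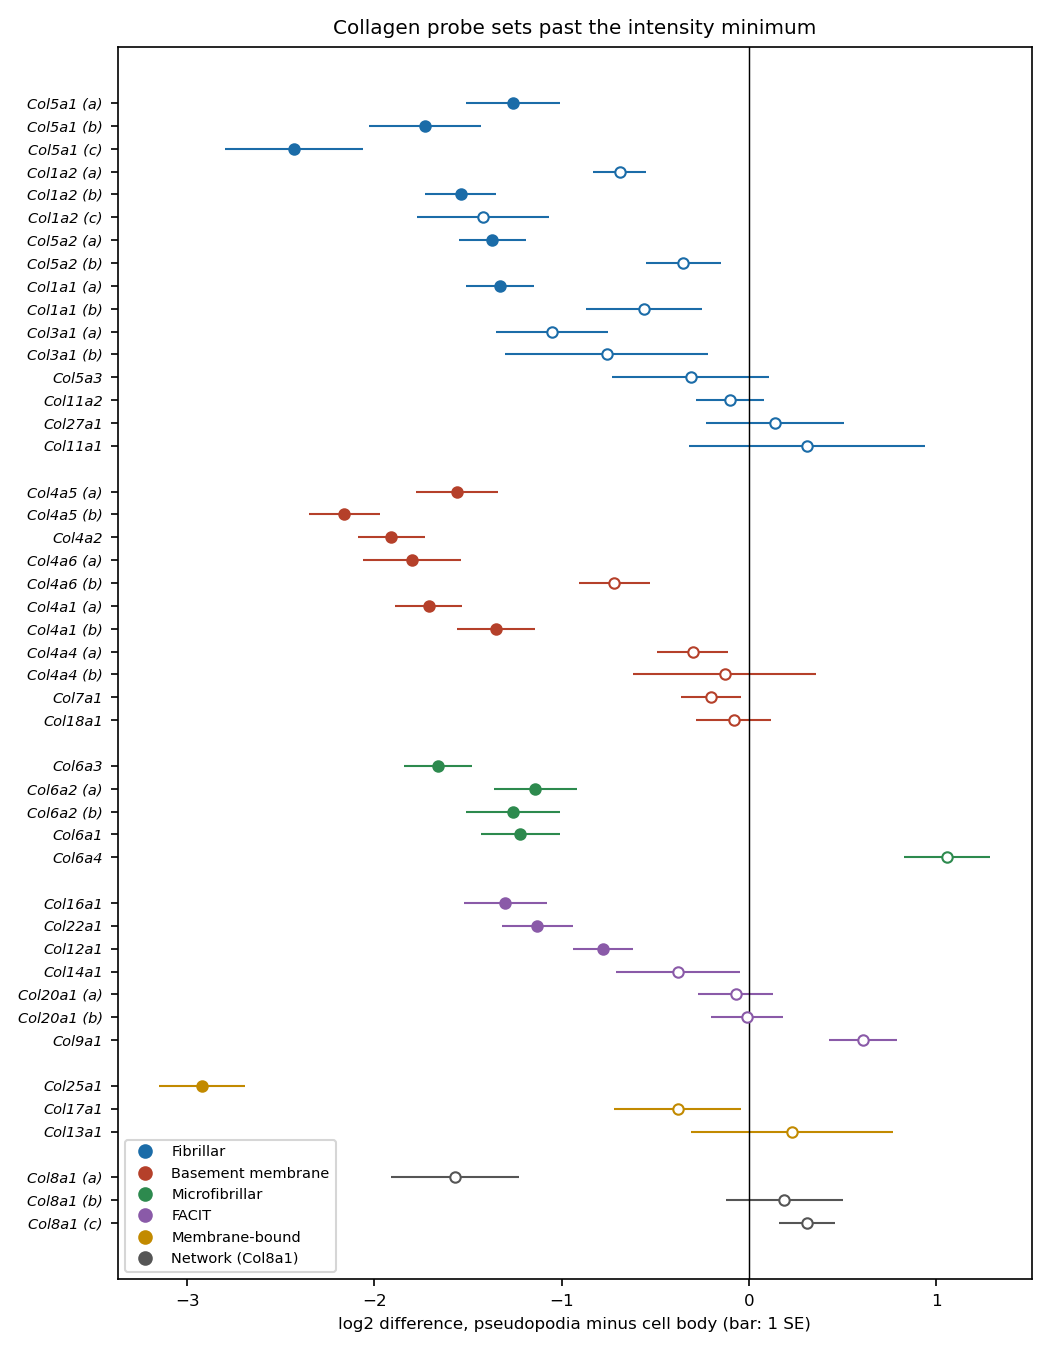
Log2 difference (pseudopodia minus cell body, x axis) of each of the 45 collagen probe sets past the intensity minimum, grouped by family, with bars of 1 SE from limma. Filled points passed the adjusted p of 0.05, and letters order the probe sets of a gene from brightest (a) to dimmest; all 20 filled points lie left of 0. Col25a1 is drawn at its fitted value, although both of its pseudopodia arrays are at the floor.

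Calls by family were as follows. Fibrillar chains had 6 of 16 probe sets lower (median log2 difference -0.91), and basement membrane chains had 6 of 11 lower, with a median of -1.35. Microfibrillar chains, all of type VI, had 4 of 5 lower (median -1.22), and FACIT chains had 3 of 7 lower (median -0.38). Among membrane-bound collagens 1 of 3 was lower (median -0.38), namely Col25a1. It lay at the floor on both pseudopodia arrays and passed the minimum only through the cell body arrays. For the network collagen Col8a1 none of 3 was called, and 2 of 3 lay above 0. Whether one family differs from another was not tested.

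Type I collagen, the main fibrillar collagen of skin, tendon and bone, is built from 2 kinds of chain. The brightest probe set of Col1a1 read 3031 and 3468 in pseudopodia and 8939 and 7420.4 in cell bodies. Pseudopodia lay below cell bodies without overlap, and the log2 difference was -1.33 (SE 0.18, limma adjusted p = 0.0275), a 2.51-fold higher level in cell bodies. A dimmer probe set of Col1a1 read 597 and 1071 against 1185 and 1172. Its difference was -0.56 (SE 0.31, adjusted p = 0.311 by limma), and the pseudopodia arrays stood far apart at this probe set.

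Col1a2, the partner chain, had the brightest collagen probe set of all, at 7011 and 7556 in pseudopodia and 11909 and 11561 in cell bodies. The highest value on any array was 15025, and whether a limit of the scale bears on this probe set was not tested. Its log2 difference of -0.69 (SE 0.14) just missed the test (limma adjusted p = 0.0505). The next probe set of Col1a2 read 1805 and 2144 against 6384 and 5126 and fell by 1.54 on the log2 scale (SE 0.19, limma adjusted p = 0.0262). The dimmest probe set read 69.3 and 130 against 222 and 296, with a difference of -1.42 (SE 0.35, limma adjusted p = 0.0727, or 0.0303 with the replicate block). All 3 probe sets thus lay lower in pseudopodia on both arrays, with sizes from -0.69 to -1.54.

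**Figure D2:**
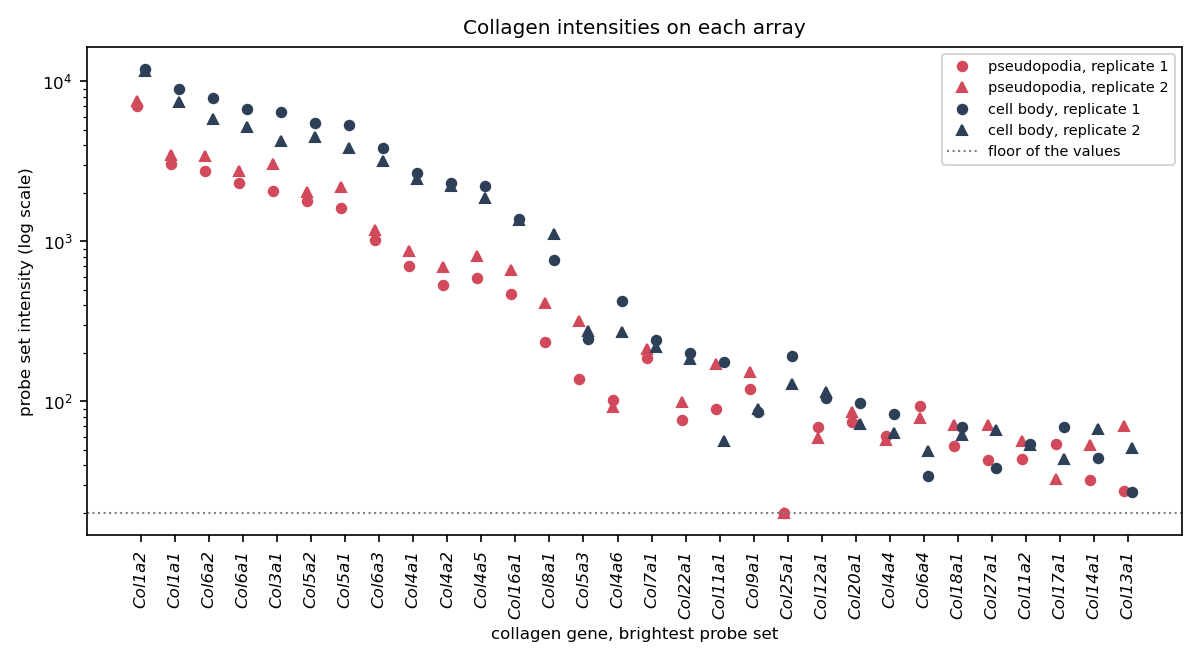
Intensity (log scale, y axis) of the brightest probe set of each of the 30 collagen genes past the minimum on each array, ordered from brightest to dimmest (x axis), with the floor of 20 as a dotted line. The 2 pseudopodia arrays (red) lie below the 2 cell body arrays (dark) for all genes from Col1a2 to Col8a1, and among the dimmer genes the order varies.

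Type III collagen, a homotrimer that shares fibrils with type I, was lower without passing the test. Its brightest probe set of Col3a1 read 2075 and 3058 in pseudopodia and 6433 and 4246 in cell bodies. The compartments did not overlap, but the cell body arrays differed from each other by 0.60 on the log2 scale, and the difference of -1.05 (SE 0.30) had a limma adjusted p of 0.0976. The dim second probe set read 61.5 and 57.5 against 176 and 58.0, so its difference of -0.76 (SE 0.54) rests on 1 cell body array.

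Type V collagen, which nucleates type I fibrils and limits their width, had falls at 4 of its 6 probe sets past the minimum. Col5a1 had 3 probe sets, and each of them fell. The brightest read 1627 and 2199 in pseudopodia and 5360.1 and 3825 in cell bodies (log2 difference -1.26, SE 0.25, limma adjusted p = 0.0482). The second read 314 and 405 against 1522 and 919, and fell by 1.73 (SE 0.30). The dimmest read 58.5 and 42.9 against 381 and 198, which is 5.40-fold higher in cell bodies (log2 difference -2.43, SE 0.37, limma adjusted p = 0.0307). Its partner Col5a2 read 1798 and 2045 in pseudopodia and 5496 and 4459 in cell bodies. That probe set fell by 1.37 (SE 0.18, limma adjusted p = 0.0275), whereas a dimmer one, at 292 and 369 against 464 and 378, had a difference of -0.35 (SE 0.20, limma adjusted p = 0.328). Col5a3, a chain with narrower expression in the body, read 138 and 320 against 247 and 276, and the arrays overlapped (log2 difference -0.31, SE 0.42).

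The remaining fibrillar chains were dim. Col11a1 and Col11a2, best known from cartilage, had differences of 0.31 (SE 0.63) and -0.10 (SE 0.18), and Col27a1 had 0.14 (SE 0.37). Their arrays overlapped between compartments, and their 95% intervals reached from -1.34 to 1.96, from -0.58 to 0.39 and from -0.84 to 1.11 on the log2 scale. A second probe set of Col27a1, under the minimum, was at the floor on both pseudopodia arrays and read 48.7 and 44.1 in cell bodies, which is at least 2.32-fold higher there. The cartilage chain Col2a1 and Col24a1 had no probe set past the minimum.

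Type IV collagen forms the sheet of the basement membrane. The widespread form joins Col4a1 with Col4a2, whose genes lie head to head on chromosome 8. The windows of RefSeq (GRCm38.p6) place the first base of Col4a1, on the minus strand, at 11312826 and that of Col4a2, on the plus strand, at 11312805. These starts overlap by 22 bases, chr8:11312805-11312826, while the annotated spans of the genes overlap further (gap of -85 bases). The 22 bases are shown here on the plus strand because messages from both of these starts hold them, with the motif GGGCGG in capitals.
Col4a1 and Col4a2 shared start: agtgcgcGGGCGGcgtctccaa

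Both messages of this gene pair fell in pseudopodia. Col4a2 read 536 and 690.0 in pseudopodia and 2330 and 2232 in cell bodies, a 3.75-fold higher level in cell bodies (log2 difference -1.91, SE 0.18, limma adjusted p = 0.0257). The brightest probe set of Col4a1 read 706 and 876 against 2694 and 2455, and it was 3.27-fold higher in cell bodies (log2 difference -1.71, SE 0.18). The other probe set of Col4a1 read 635 and 889.9 against 1989 and 1848 and fell by 1.35 (SE 0.21, limma adjusted p = 0.0321). The separation was clean at all 3 probe sets, with both cell body arrays above both pseudopodia arrays.

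Col4a5 and Col4a6, a second pair of type IV chains with neighbouring genes on the X chromosome, fell at 3 of 4 probe sets. Col4a5 read 593 and 808 in pseudopodia and 2215 and 1872 in cell bodies at its brightest probe set (log2 difference -1.56, SE 0.22, limma adjusted p = 0.0285). At its dimmer one it read 148 and 134 against 719 and 562, a 4.48-fold higher level in cell bodies (log2 difference -2.16, SE 0.19). Col4a6 read 102 and 91.6 against 426 and 270.3 at one probe set, which fell by 1.80 (SE 0.26, limma adjusted p = 0.0291). The other, at 148 and 165 against 293 and 226, had a difference of -0.72 (SE 0.19, limma adjusted p = 0.0834).

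Other collagens of the basement membrane zone were dim and were not called. Col4a4 had differences of -0.30 (SE 0.19) and -0.13 (SE 0.49) at its probe sets. Col7a1, which forms the anchoring fibrils under the epidermis, read 186 and 214 against 242 and 218, a difference of -0.20 (SE 0.16), with a 95% interval from -0.62 to 0.22. Col18a1, the precursor of endostatin, had -0.08 (SE 0.20), with an interval from -0.62 to 0.46. Col4a3 and Col15a1 had no probe set past the minimum.

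Type VI collagen makes beaded microfilaments that link cells to the surrounding matrix, and its common form joins Col6a1, Col6a2 and Col6a3. All of these messages fell. Col6a3, the largest chain, read 1027 and 1176 in pseudopodia and 3811 and 3156 in cell bodies, which is 3.15-fold higher in cell bodies (log2 difference -1.66, SE 0.18, limma adjusted p = 0.0257). Col6a1 read 2326 and 2766 against 6761 and 5156 and fell by 1.22 (SE 0.21, limma adjusted p = 0.0352). Col6a2 read 2749 and 3421 against 7856 and 5813 at its brightest probe set, with a difference of -1.14 (SE 0.22, limma adjusted p = 0.0457), and its other probe set fell by 1.26 (SE 0.25). No array of pseudopodia reached any array of cell bodies at these 4 probe sets. Both Col6a2 calls, and that of the brightest Col5a1 probe set, were lost with quantile normalization and with the replicate number as a block. With the block the limma adjusted p was 0.0536 and 0.0555 for Col6a2 and 0.0574 for Col5a1.

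Col6a4, a chain related to Col6a3, went the other way at a low level. It read 94.1 and 78.9 in pseudopodia and 34.0 and 48.7 in cell bodies. The cell body mean, 41.4, was under the minimum, so this probe set passed it only through the pseudopodia arrays. Its difference is therefore no support for a rise. The log2 difference of 1.06 (SE 0.23) missed the test (limma adjusted p = 0.0557, with 0.0437 to 0.267 over the alternatives that keep all arrays), and the other probe set of Col6a4 lay at the floor on all 4 arrays. Col6a5 had no probe set past the minimum.

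Upstream sequence is shown for chains of types I, III, VI and VIII that passed the intensity minimum and have a window of 150 bases before an annotated start outside every annotated gene. They come from RefSeq (GRCm38.p6), read 5′ to 3′ on the strand of the gene, with capitals for matches on either strand to the TATA motif TATAAA, to the core of the CAAT box, CCAAT, and to the core of the GC box, GGGCGG (matches do not overlap here). They lie at chr6:4505468-4505617 (plus strand, Col1a2), chr1:45311388-45311537 (plus, Col3a1), chr10:76726045-76726194 (minus, Col6a1), chr10:76623631-76623780 (minus, Col6a2) and chr16:57754738-57754887 (minus, Col8a1).
Col1a2: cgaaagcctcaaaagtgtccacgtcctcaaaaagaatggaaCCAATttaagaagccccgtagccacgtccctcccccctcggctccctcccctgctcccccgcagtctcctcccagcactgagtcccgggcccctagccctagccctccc
Col3a1: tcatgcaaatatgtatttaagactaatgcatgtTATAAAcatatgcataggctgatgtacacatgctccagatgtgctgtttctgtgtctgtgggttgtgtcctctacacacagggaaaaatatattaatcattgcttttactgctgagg
Col6a1: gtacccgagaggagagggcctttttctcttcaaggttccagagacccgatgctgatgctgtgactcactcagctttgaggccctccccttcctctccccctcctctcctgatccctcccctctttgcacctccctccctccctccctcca
Col6a2: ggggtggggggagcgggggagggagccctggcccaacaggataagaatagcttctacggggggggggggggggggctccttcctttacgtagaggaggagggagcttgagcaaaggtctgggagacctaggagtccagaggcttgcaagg
Col8a1: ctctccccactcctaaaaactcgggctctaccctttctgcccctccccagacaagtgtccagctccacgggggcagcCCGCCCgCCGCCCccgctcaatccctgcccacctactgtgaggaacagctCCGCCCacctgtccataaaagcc

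The lines differ in what they hold, but the genes did not differ in direction at their brightest probe sets. Each lay lower in pseudopodia without overlap there, and Col1a2, Col3a1 and Col8a1 did not pass the test at that probe set. The Col1a2 window has 1 CCAAT match, which starts 109 bases before the annotated start. The Col3a1 window has 1 TATAAA match, 117 bases before it, and the Col8a1 window has 3 GGGCGG matches, while the windows shown for Col6a1 and Col6a2 hold none of the 3 motifs. Col6a2 has a second annotated start, whose window, inside the span of the gene and not shown, holds 3 GGGCGG matches. Col7a1, Col17a1 and Col18a1 passed the minimum, were not called, and also have windows outside every annotated gene, which are not shown. That of Col17a1 holds TATAAA and CCAAT, and those of Col7a1 and Col18a1 hold GGGCGG. Windows were found for 33 of the 42 collagen genes, 36 windows in all. CCAAT was in 8 of the 36, against 24.5% of all 32851 windows, TATAAA in 4, against 7.57%, and GGGCGG in 18, against 28.6%. A match is a description of the letters and not a binding site, and its part in the differences between compartments was not tested.

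The FACIT collagens, which coat fibrils, had 3 messages lower in pseudopodia. Col16a1 was the brightest of them, at 466 and 662 in pseudopodia and 1376 and 1353 in cell bodies (log2 difference -1.30, SE 0.22, limma adjusted p = 0.0346). Col22a1, known from tissue junctions such as that of muscle and tendon, read 76.5 and 99.7 against 200.5 and 183, and it fell by 1.13 (SE 0.19, limma adjusted p = 0.0353). Its other probe sets lay under the minimum. Col12a1, a chain of dense connective tissue, read 68.9 and 59.2 against 105 and 115. It fell by 0.78 (SE 0.16) with a limma adjusted p of 0.0499, and the call was lost in 6 of the 9 alternatives that tested it on all arrays, so it stands at the edge of the test. The other probe sets of Col12a1 lay under the minimum, 2 of them at the floor on all arrays.

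The other FACIT chains did not pass the test. Col9a1, a cartilage chain, read 119 and 152 in pseudopodia and 86.3 and 89.0 in cell bodies. Both pseudopodia arrays were the higher ones, and the difference of 0.61 (SE 0.18) had a limma adjusted p of 0.102. Col14a1 had a difference of -0.38 (SE 0.33), and Col20a1 had -0.07 (SE 0.20) and -0.01 (SE 0.19), with overlapping arrays for both genes. Col9a2, Col9a3 and Col19a1 had no probe set past the minimum.

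Among membrane-bound collagens, Col25a1 was at the floor of 20 on both pseudopodia arrays and read 193 and 129 in cell bodies. It was thus at least 7.90-fold higher in cell bodies, and its second probe set lay at the floor on all arrays. This dim probe set passed the minimum only through the cell body arrays, so it had to differ, and the equal floor values give it no measured spread in pseudopodia. Its limma adjusted p of 0.0257 is therefore no support for the difference. Col13a1 read 27.6 and 70.6 against 27.2 and 51.5 (log2 difference 0.23, SE 0.54), and Col17a1, a protein of the hemidesmosome, read 54.1 and 32.8 against 69.1 and 44.0 (log2 difference -0.38, SE 0.34). The spread within a compartment was wider than the difference between compartments for both. Col23a1 had no probe set past the minimum.

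Col8a1, a short-chain collagen of vessel walls and of the matrix beneath the corneal endothelium, gave probe sets of opposite sign. The brightest read 235 and 410 in pseudopodia and 765 and 1109 in cell bodies, a difference of -1.57 (SE 0.34, limma adjusted p = 0.0566). It passed the test in 6 of the 10 alternatives that keep all arrays, with an adjusted p of 0.0288 under the replicate block and of 0.00602 to 0.308 over the 10. The second read 230 and 386 against 229 and 297 (log2 difference 0.19, SE 0.31), and the third, at the edge of the minimum, 48.6 and 46.7 against 36.1 and 40.4 (log2 difference 0.31, SE 0.15). With a cell body mean of 38.2, the third passed the minimum only through the pseudopodia arrays, so its sign is no support for a rise. Col8a1 was the 1 gene of 12 with several probe sets past the minimum whose probe sets did not share a sign. Of these 12 genes, 4 had every probe set called, 4 had some and 4 had none. Where each probe set lies along its message was not analysed here, and the differences between probe sets were not tested. Col8a2, Col10a1 and Col26a1 had no probe set past the minimum.

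The level of a probe set went with its result. Of the 15 collagen probe sets with a mean intensity of at least 1000, 12 fell, against 8.30% of all probe sets of that brightness. All 15 had both pseudopodia arrays below both cell body arrays, against 43.1%, and 13 had a log2 difference of -1 or less, against 6.81%. Of the 15 between 100 and 1000, 6 fell, against 8.28%, and of the 15 between 42 and 100, 2 fell, against 4.84%. Those 2 were Col25a1, which passed the minimum only through the cell body arrays, and Col12a1, at a limma adjusted p of 0.0499. The bright collagens had a median difference of -1.33, while all probe sets of that brightness had a median of -0.07. Just inside the minimum lay the dimmest Col8a1 probe set, at a mean of 42.9, and Col13a1, at 44.2. Just outside lay Col2a1, at 38.2, and the dimmer probe set of Col18a1, at 37.1. Of the 37 collagen probe sets under the minimum, 14 lay at the floor on all 4 arrays.

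**Figure D3:**
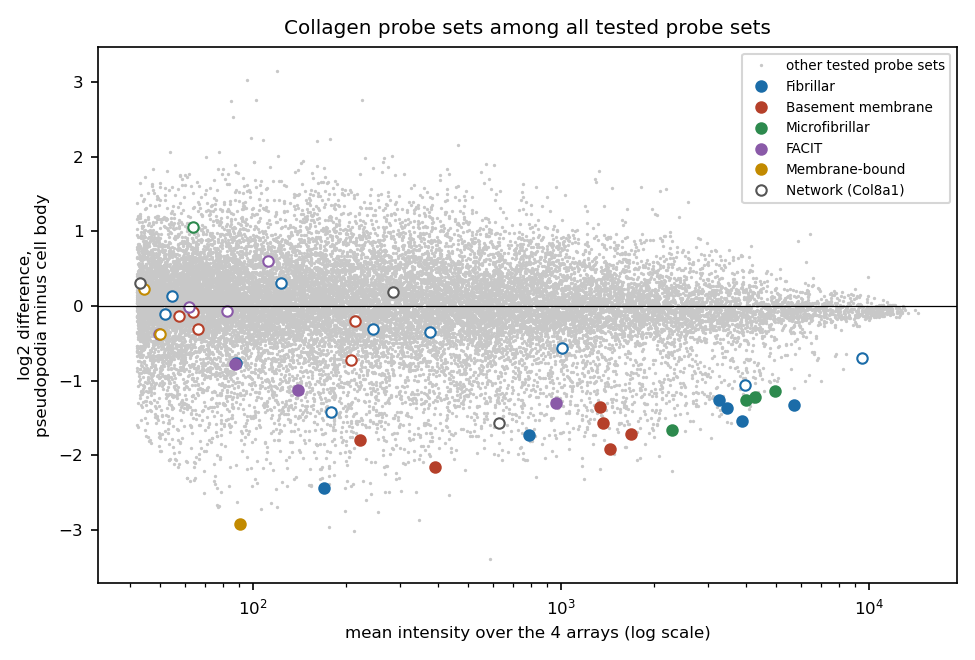
Log2 difference (pseudopodia minus cell body, y axis) against mean intensity over the 4 arrays (log scale, x axis) for all 22884 tested probe sets (grey) and the 45 collagen probe sets (coloured by family, filled where called). The 15 collagen probe sets at a mean of at least 1000 lie between -0.56 and -1.91.

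The replicates differed in the size of the difference. Taken by the replicate numbers of the labels, the difference was larger in number 1 than in number 2 for 19 of the 20 called probe sets, the exception being Col12a1. The median log2 difference of the 20, which include Col25a1 at the floor on both pseudopodia arrays, was -1.77 for number 1 and -1.15 for number 2. Cell body array 1 read above cell body array 2 at 19 of them, and pseudopodia array 1 read below pseudopodia array 2 at 15. Over all 45 collagen probe sets the median log2 gap between the pseudopodia arrays, 1 minus 2, was -0.33, and over all probe sets tested it was -0.020.

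The genes that build, bind and break down collagen were read at the brightest probe set of each gene. Of 57 tested genes on the list, 17 fell and 1 rose, with a median log2 difference of -0.54. Over the 11426 genes read the same way, 6.69% were lower and 4.05% higher, and the median was 0.

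The enzymes and chaperones of the endoplasmic reticulum that modify and fold the chains held falls at 7 of 16 tested genes, with a median of -0.78 and all 16 below 0. P3h1, a prolyl 3-hydroxylase, read 110 and 122 in pseudopodia and 574 and 329 in cell bodies and fell by 1.90 (SE 0.30, limma adjusted p = 0.0321). P4ha2, a subunit of prolyl 4-hydroxylase, fell by 1.68 (SE 0.16), and Plod1, a lysyl hydroxylase, fell by 1.51 (SE 0.22). Serpinh1, the collagen chaperone Hsp47 and the brightest gene here, read 4900.1 and 5585 against 8657 and 8211. Its difference of -0.69 (SE 0.15) had a limma adjusted p of 0.0580, while its other probe set fell by 0.99 (SE 0.20).

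Among 9 tested genes of export from the reticulum none fell, the median was -0.14, and Klhl12 rose. Klhl12 encodes a ubiquitin ligase adaptor known for enlarging the coat of carriers that fit procollagen. It read 462 and 550 in pseudopodia and 199 and 234 in cell bodies, a log2 difference of 1.22 (SE 0.18, limma adjusted p = 0.0293). Sar1b, the coat GTPase and brightest of the list, read 3833 and 3600.1 against 3603 and 3612, a difference of 0.04 (SE 0.14).

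Outside the cell, procollagen is trimmed and cross-linked, and 2 of 6 tested genes of these steps fell (median -0.67). Bmp1, the C-propeptidase, read 192 and 245 against 620.4 and 567 and fell by 1.45 (SE 0.18, limma adjusted p = 0.0267). The cross-linking enzyme Loxl3 fell by 1.42 (SE 0.26, limma adjusted p = 0.0409). Pcolce, the enhancer of Bmp1 and brightest of the list, had a difference of -0.67 (SE 0.15, limma adjusted p = 0.0625). A dimmer probe set of Pcolce fell by 1.38 (SE 0.17). Matrix partners held 2 falls among 7 tested genes (median -0.58): the basement membrane linker Nid1 fell by 0.87 (SE 0.17) and the collagen-binding Sparc fell by 0.84 (SE 0.15), with limma adjusted p values of 0.0439 and 0.0384. Sparc read 5599 and 6236 in pseudopodia and 10827 and 10277 in cell bodies, and its other probe set did not pass the test (log2 difference -0.61, SE 0.16, limma adjusted p = 0.0823).

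Collagen receptors held 3 falls among 5 tested genes (median -1.07). The uptake receptor Mrc2 fell by 1.39 (SE 0.22, limma adjusted p = 0.0321), the receptor kinase Ddr1 by 1.30 (SE 0.22) and the integrin subunit Itgb1 by 1.07 (SE 0.17). Neither of the other tested receptors was called, and both lay above 0 with overlapping arrays, the bright Ddr2 at 0.28 (SE 0.21). Ddr1 had 8 probe sets past the minimum, of which 7 fell. The other probe sets of Itgb1 fell as well, while a dim second probe set of Mrc2 was not called (log2 difference -0.17, SE 0.28). Among 6 tested proteases and inhibitors 3 fell (median -0.87), namely Timp3 by 1.31 (SE 0.22), the gelatinase Mmp2 by 0.98 (SE 0.17) and Timp2 by 0.92 (SE 0.15). None of 8 tested RNA-binding and transcription factors of collagen genes was called (median -0.03). The brightest of these, Ybx1, read 8261 and 7984 in pseudopodia and 7270 and 7312 in cell bodies (log2 difference 0.16, SE 0.14, limma adjusted p = 0.525). Its other probe set, dim at a mean of 63.9, had the opposite sign and was not called (log2 difference -1.49, SE 0.33, limma adjusted p = 0.0586).

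**Figure D4:**
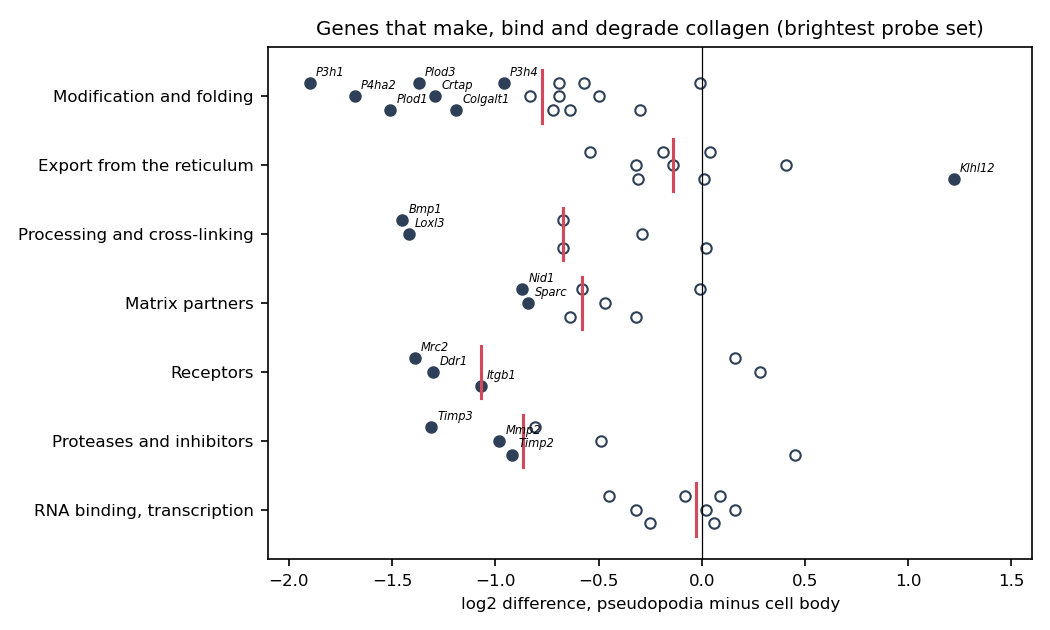
Log2 difference (pseudopodia minus cell body, x axis) of 57 genes that act on collagen, by step (y axis), at the brightest probe set of each gene; filled and named points passed the adjusted p of 0.05 and red lines mark the medians. The filled points lie left of 0 except Klhl12, at 1.22; the last step has none.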

How the data were processed

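RNA of 2 pseudopodia and 2 cell body samples was read on 4 Affymetrix Mouse430_2 arrays, per the array records. The authors deposited 1 linear intensity per probe set and array, with a lowest value of 20 (the floor, at 30.5% to 34.8% of probe sets). How probes were summarised and arrays scaled was not given in the sources used here. Array medians were 40.5 to 45.6, and no scaling was added. The number of arrays limits the precision.

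Gene symbols come from the platform annotation. The 64 control probe sets were left out. Every probe set with a mean intensity of at least 42 was tested with limma 3.58.1 in R 4.3.3 (lmFit, eBayes, two-sided, 2 residual and 2.64 prior degrees of freedom) on log2(intensity + 1), with Benjamini-Hochberg adjustment over all 22884. The fit was tested on simulated data. All collagen genes past the minimum are named. Of the other lists, the 3 largest called changes in each direction and the brightest gene are named, with Ddr2 added among the receptors. A fold is the antilog of a log2 difference, and "at least" is the geometric mean over the floor. Members, families and lists were chosen with earlier results of these data known. Alternatives changed the pseudocount, minimum, normalization, probe sets, variance prior, replicate block and arrays.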

Additional observations from a re-analysis of the deposited data

How the results depend on the processing

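Collagen probe sets called lower numbered 16 to 23 in the alternatives that keep all arrays, other than 0 without the intensity minimum. These counts have unlike totals: 16 of 30 with the brightest probe set of each gene, 22 of 30 at a minimum of 100 and 16 of 45 with quantile normalization. Without the intensity minimum all probe sets called were 73, and pathway genes 0 lower and 0 higher. One probe set a gene gave 1592 calls in all and 1 collagen higher, the intensity trend 4481 calls, 1 collagen higher and 27 pathway genes lower, and median centring and a pseudocount of 16 each 1 collagen higher. Without 1 array, all calls, collagens and pathway genes in either direction ranged from 0 to 0, against 4622 to 5849 probe sets at an unadjusted p under 0.05. The replicate block gave 18 collagen probe sets lower and 3254 calls in all: 16 of the 20 calls were kept, those of Col12a1, both Col6a2 and the brightest Col5a1 probe sets were lost, and the brightest Col8a1 and dimmest Col1a2 probe sets were gained; same-numbered arrays deviated together (correlation 0.328 across probe sets), but only 2 pairs exist, so the numbers are not shown to pair the samples. Among the named probe sets, directions turned only at ones that were not called: without 1 array, Col11a1 ranged from -0.50 to 1.12, Col11a2 from -0.28 to 0.09, Col13a1 from -0.43 to 0.90, Col18a1 from -0.30 to 0.14, Col20a1 from -0.15 to 0.13 and from -0.28 to 0.14, Col27a1 from -0.25 to 0.52, dim Col3a1 from -1.55 to 0.03, dim Col4a4 from -0.68 to 0.41, Col5a3 from -0.91 to 0.29, the second Col8a1 from -0.18 to 0.56 and Sar1b from -0.00 to 0.09, and median centring gave 0.02 for Col20a1. The cause was not tested. Array number limits all of these values.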
